A study of Mus musculus with 8 samples.

Results

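The genes described here encode the machinery that builds and guards the cilium: the intraflagellar transport (IFT) trains and their motors, the BBSome with its assembly chaperonin, and the transition zone. Members were all genes whose symbol in the authors' normalized table matched a fixed pattern of names (among them Ift and Bbs followed by a digit, Bbip1, Ttc21b, Wdr19, Wdr35, Wdr60, Wdr34, Kif3a to Kif3c, Kifap3, Dync2h1, Dync2li1, Nphp4, Tctn followed by a digit, Mks1, Rpgrip1l, Cep290, B9d1 and B9d2). The pattern found 46 of the 21369 genes of that table, and each was joined by its Ensembl identifier to the count files, which hold 48823 genes. Of the 46 members 44 were annotated as protein coding in GENCODE M21, Tctn2 as a processed transcript, and 1, Ift88os, as an antisense RNA lying against Ift88.

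RNA came from the utricle, a balance organ of the inner ear, of C57BL/6 mouse embryos at E15.5. One group of 4 libraries was from Rest(+/deltaExon4) embryos, which lack exon 4 of Rest on 1 allele and keep the other allele intact, and the other group of 4 was from wild-type embryos. The titles call the mutant libraries KO although the genotype is heterozygous, and wild-type replicate 4 is labelled C57BL/7 and E15.6. Each library pooled RNA of 7 to 9 mice, so the spread between libraries is a spread between pools, and nothing in the labels ties a library to a litter or a day. REST represses neuronal genes, and exon 4 of Rest is a small alternative exon whose inclusion in neurons and hair cells gives a truncated protein that cannot repress them. The comparison asks how the utricle transcriptome differs when 1 allele lacks that exon.

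IFT trains carry cargo along the axoneme. IFT-B with the kinesin-2 motor moves towards the tip and IFT-A with dynein-2 moves back to the base, while the BBSome is a coat-like adaptor that rides on the trains and removes membrane proteins from the cilium. The transition zone is a gate of protein modules at the base that limits what enters and leaves. In the vestibular organs the hair cell carries a true cilium, the kinocilium, beside its stereocilia, and supporting and mesenchymal cells carry primary cilia, so these genes are used by most cells of the organ.

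Depth was similar in all libraries, with 20.4 to 24.6 M read pairs on genes. The share of read pairs outside annotated genes was 11.9% to 18.3% among mutants, against 18.4% to 22.2% in the wild type, and the 2 ranges did not overlap. Its part in the results was not tested. The members took 0.199% to 0.220% of gene reads in the mutant group, against 0.226% to 0.234%. Rest itself averaged 126.9 ± 3.20 counts per M read pairs (CPM, scaled by TMM factors) in mutants against 116.5 ± 7.35 CPM (n = 4 per genotype, SD). Every mutant library was above every wild-type one (124.6 to 131.7 against 106.2 to 122.0 CPM), as for 2.98% of all genes tested. An exact two-sided permutation test gave p = 0.0286, the lowest of 70 assignments. With any 1 mutant library left out the permutation p was 0.0857, at ratios of 1.08 to 1.10 against 1.09 with all libraries. The edgeR adjusted p was 0.456. Counts per gene carry no information on exon 4. Markers of the organ were present, among them the hair cell genes Pou4f3 (116.1 ± 11.5 CPM in wild type) and Otof (167.3 ± 8.80 CPM) and the supporting cell gene Jag1 (898.3 ± 136.2 CPM). Of the motile multiciliated cell markers, Gmnc had no read in any library and Mcidas and Ccno averaged 0.0924 and 0.142 CPM in wild type, while Dnah5 was at 19.7 CPM and Foxj1 at 9.97 CPM.

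None of the 45 members that passed the filter on low counts changed past the threshold (edgeR quasi-likelihood test, Benjamini-Hochberg adjusted p under 0.05 over all 16990 genes tested), where 1.17% of all genes tested passed (1.02% lower and 0.147% higher). The smallest adjusted p was 0.177, for Bbs1. At an unadjusted p under 0.05, 12 members were lower in the mutant libraries and 0 higher, where 7.92% of all genes tested were lower and 5.46% higher at that level (13.4% in all). DESeq2's Wald test called 1 member, Bbs1 (adjusted p = 0.0473), where it called 3.33% of all genes. A negative log2 change was found for 32 of the 45 (50.5% of all genes tested), with a median of -0.09 against -0.0027 over all genes tested. The 12 members were Bbs1, Bbs4, Bbs5, Bbs7, Bbs9, Bbs10, Ift172, Ift88, Ift140, Wdr35, Kifap3 and Tctn1. Differences were small: for 41 of 45 members the 95% interval of the change lay within 1.5-fold in either direction, for 12 within 1.2-fold, and for all 45 within 2-fold. In bulk RNA, fewer cells of a type and less RNA per cell cannot be told apart.

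**Figure D1:**
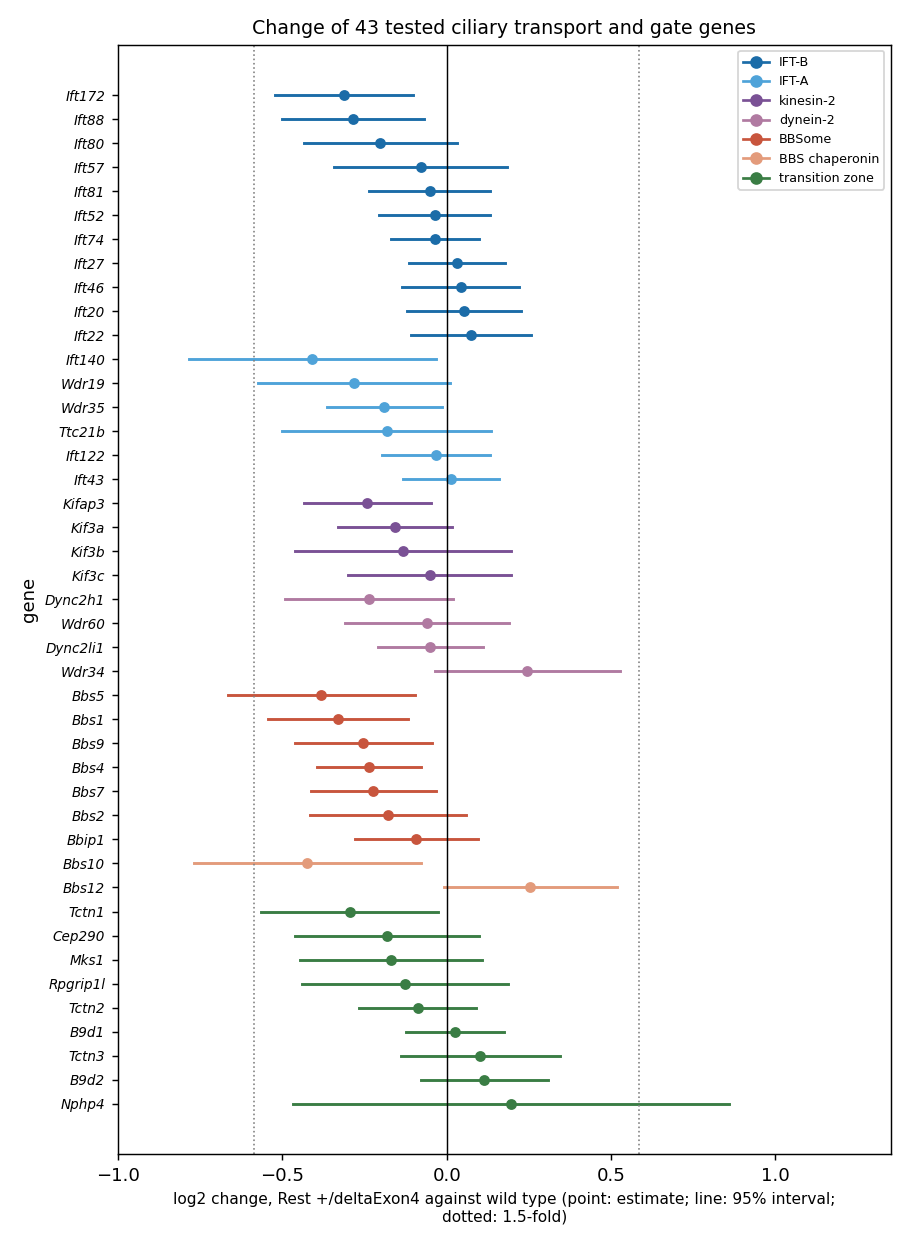
Log2 change of 43 tested genes in Rest(+/deltaExon4) against wild-type libraries (n = 4 each), grouped by complex, with the 95% interval of edgeR's estimate as a line and 1.5-fold marked by dotted lines. All 7 BBSome subunit genes lie left of 0, whereas the transition zone genes shown lie on both sides (5 and 4).

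The BBSome held the most members at a low unadjusted p. All 7 of its subunit genes matched by the rule had a negative log2 change, with a median of -0.24, and 5 of the 7 had an unadjusted p under 0.05 (3 of 7 without mutant replicate 2). For the same 5 (Bbs1, Bbs4, Bbs5, Bbs7 and Bbs9) every mutant library was below every wild-type library, which was the case for 4.89% of all genes tested. Summed over the 7 genes, the level was 250.7, 242.8, 256.9 and 262.7 CPM in the mutant libraries and 293.4, 296.0, 293.6 and 294.5 CPM in the wild-type libraries. The groups did not overlap in this sum, at a ratio of 0.860 (SD 8.524 CPM in mutants and 1.162 CPM in wild type). No single gene passed the adjusted threshold in edgeR. Such sums also did not overlap for all 46 members (2085 to 2165 against 2242 to 2274 CPM, ratio 0.941). Those of the 4 kinesin-2 genes did not overlap either (234.6 to 259.7 against 262.0 to 306.0 CPM, ratio 0.880). Their gap was smaller than the spread in either group (SD 11.6 and 19.25 CPM), and each of the 4 genes alone overlapped. The sums overlapped for IFT-A, IFT-B, dynein-2 and the transition zone. How often the sums of other sets of genes separate was not tested.

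Bbs1, the subunit through which the complex meets its membrane GTPase ARL6, was at 19.1, 20.1, 19.4 and 18.2 CPM in the mutant and 25.9, 24.5, 24.5 and 21.5 CPM in wild-type libraries. The lowest wild-type library was replicate 4, still above every mutant library, and the ratio of the means was 0.796 (log2 change -0.33 ± 0.10, SE, 95% interval -0.54 to -0.12, edgeR adjusted p = 0.177). Bbs4, which ties the complex to pericentriolar material, was at 59.7, 66.4, 68.8 and 68.9 CPM against 74.0, 81.2, 79.3 and 76.5 CPM. Its log2 change was -0.24 ± 0.07 (edgeR adjusted p = 0.187), with the lowest value in mutant replicate 1. The phosphoinositide-binding subunit gene Bbs5 was at 22.3, 24.1, 18.9 and 16.0 CPM against 25.1, 27.1, 27.3 and 26.3 CPM. Here the mutant libraries varied more than the wild-type ones (SD 3.596 against 0.9782), and the log2 change was -0.38 ± 0.13 (edgeR adjusted p = 0.247).

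Bbs7 and Bbs9, which form part of the BBSome core, had ratios of 0.857 and 0.839. Bbs7 was at 28.0, 30.2, 31.6 and 33.2 CPM in the mutant and 37.4, 35.3, 33.65 and 37.3 CPM in wild-type libraries, so the closest libraries of the groups nearly met. Bbs9 was at 26.7, 22.8, 26.2 and 24.6 CPM against 27.6, 29.1, 32.4 and 30.4 CPM. The groups overlapped for Bbs2 (27.8 to 39.3 against 36.0 to 39.8 CPM) and for Bbip1, the smallest subunit (51.4 to 62.5 against 56.7 to 66.5 CPM). Their intervals reached from -0.42 to 0.06 and from -0.28 to 0.09 on the log2 scale. The remaining subunit gene of the complex, Ttc8, is not matched by the name pattern and averaged 66.4 ± 2.29 in mutants and 70.3 ± 3.63 CPM in the wild type (log2 change -0.08 ± 0.07, edgeR adjusted p = 0.621).

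**Figure D2:**
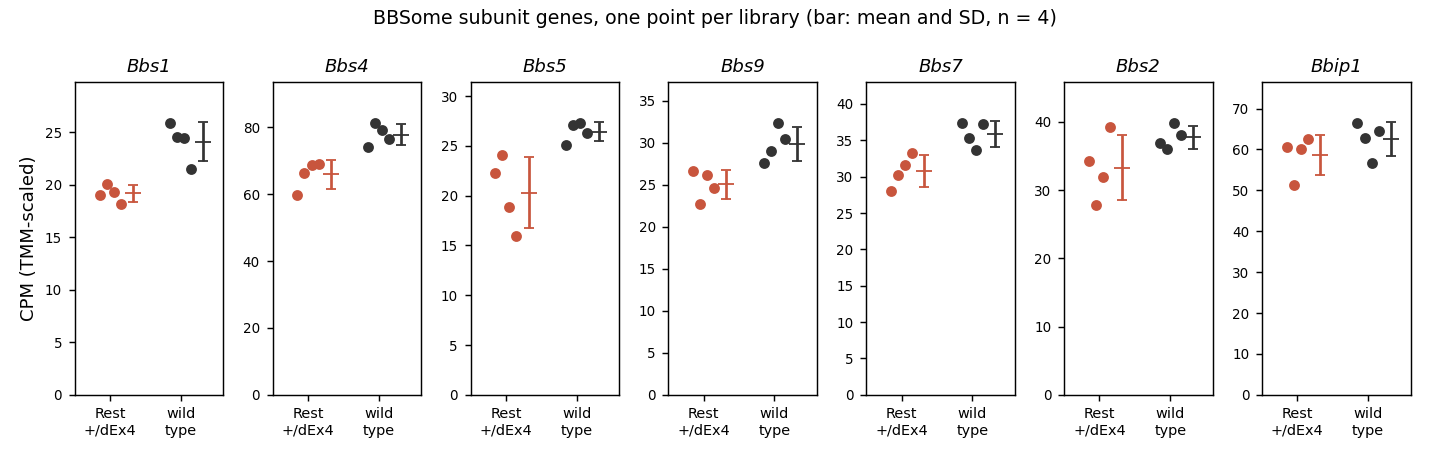
CPM of the 7 BBSome subunit genes in each library, red for Rest(+/deltaExon4) and black for wild type, with mean and SD (n = 4), on axes that start at 0. For Bbs1, Bbs4, Bbs5, Bbs9 and Bbs7 the groups do not overlap, and for Bbs2 and Bbip1 they do.

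The chaperonin-like proteins that help assemble the BBSome had log2 changes of opposite sign. Bbs10 was at 6.30, 4.83, 4.84 and 5.93 CPM in the mutant and 6.76, 8.27, 7.48 and 6.89 CPM in wild-type libraries, without overlap (log2 change -0.42 ± 0.16, SE, edgeR adjusted p = 0.291). It is among the less expressed members, at 101 to 185 read pairs per library. Bbs12 was at 15.61, 18.1, 15.49 and 16.2 CPM against 11.65, 15.7, 14.1 and 13.3 CPM, with the groups overlapping at wild-type replicate 2 (log2 change 0.26 ± 0.12, edgeR adjusted p = 0.39). The third such gene, Mkks, also outside the pattern, was at 51.6 ± 3.48 and 50.01 ± 4.96 CPM (edgeR adjusted p = 0.873).

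Among the 11 IFT-B genes, 7 had a negative and 4 a positive log2 change, with a median of -0.04, and all 11 intervals lay within 1.5-fold. Ift172, the largest IFT-B protein, was at 29.2, 36.2, 32.8 and 37.2 CPM in the mutant and 42.3, 41.8, 44.7 and 39.4 CPM in wild-type libraries. The groups did not overlap, and the log2 change was -0.31 ± 0.09 (SE, edgeR adjusted p = 0.189). Ift88, a core subunit whose loss abolishes cilia, was at 35.5, 36.2, 44.5 and 46.1 CPM against 48.8, 48.9, 49.6 and 50.7 CPM. The mutant libraries formed a low pair (replicates 1 and 2) and a pair just under the wild-type range, for a log2 change of -0.29 ± 0.10 (edgeR adjusted p = 0.252).

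Ift80 did not overlap either (27.3 to 37.3 against 37.7 to 41.1 CPM), but with an unadjusted p of 0.0827, and mutant replicate 3 was far below the others. The other IFT-B genes differed less. Ift74, which with Ift81 binds tubulin, was at 182.8, 175.0, 183.6 and 172.8 CPM in the mutant and 184.6, 184.8, 176.9 and 185.8 CPM in wild-type libraries, and its interval of -0.17 to 0.10 was the narrowest of the 45. For Ift27, the small GTPase that links the trains to the BBSome, the means were 68.3 ± 3.75 and 66.9 ± 0.865 CPM (SD, n = 4 each). Ift20, Ift22, Ift46, Ift52, Ift57 and Ift81 had log2 changes between -0.08 and 0.07.

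Of the 6 IFT-A genes 5 had a negative log2 change (median -0.19). Ift140, a scaffold subunit, was at 31.2, 29.5, 36.5 and 32.8 CPM in the mutant and 35.1, 37.3, 38.0 and 62.2 CPM in wild-type libraries. Wild-type replicate 4 stood far above the rest, and the log2 change of -0.41 ± 0.17 (SE, edgeR adjusted p = 0.342) was -0.18 without it. Wdr35 was at 62.3, 69.2, 57.8 and 66.4 CPM against 75.0, 76.8, 73.1 and 66.4 CPM, and Wdr19 at 23.9, 29.3, 24.0 and 34.4 CPM against 33.6, 33.3, 38.7 and 30.1 CPM. In both, 1 mutant library reached into the wild-type range (edgeR adjusted p = 0.343 and 0.391). Ttc21b, which also limits Hedgehog signalling, was at 15.49 ± 2.49 and 17.6 ± 2.21 CPM, whereas Ift122 (78.5 ± 4.46 and 80.3 ± 5.50 CPM) and Ift43 (73.8 ± 2.27 and 73.1 ± 3.78 CPM) had the smallest log2 changes of the complex, -0.03 and 0.01.

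The kinesin-2 genes all had a negative log2 change. Kifap3, the adaptor that couples the motor pair to cargo, was at 92.4, 114.0, 103.9 and 111.3 CPM in the mutant and 134.7, 118.8, 131.7 and 113.2 CPM in wild-type libraries. The groups overlapped by 1 mutant library, replicate 2 (log2 change -0.24 ± 0.09, SE, edgeR adjusted p = 0.282). Kif3a, the shared motor subunit, was at 117.0, 118.5, 129.9 and 119.1 CPM against 148.0, 135.1, 137.7 and 119.0 CPM, overlapping through wild-type replicate 4 (log2 change -0.16 ± 0.08, edgeR adjusted p = 0.42). Of its alternative partners, Kif3b was at 7.97 ± 1.195 and 8.74 ± 0.819 CPM and the neuronal Kif3c at 17.3 ± 1.03 and 18.0 ± 2.06 CPM. Opposite-strand genes cover 40.7% of the exonic bases of Kif3c, and reads there cannot be assigned by strand, so its level is uncertain.

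Dynein-2 genes had log2 changes of both signs. The motor heavy chain gene Dync2h1 was at 26.7, 30.4, 21.7 and 26.4 CPM in the mutant and 33.55, 32.9, 28.5 and 28.95 CPM in wild-type libraries, with an interval of -0.49 to 0.02. Wdr34, an intermediate chain, was higher in 3 of 4 mutant libraries: 39.1, 33.9, 37.9 and 26.1 CPM against 27.1, 27.5, 31.5 and 29.4 CPM (log2 change 0.25 ± 0.13, SE, edgeR adjusted p = 0.432). The other intermediate chain gene, Wdr60, was at 38.3 ± 4.88 and 39.9 ± 4.38 CPM, and the light intermediate chain gene Dync2li1 at 71.1 ± 4.39 and 73.6 ± 3.78 CPM (SD, n = 4 each).

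The 10 transition zone genes had a median log2 change of -0.03, with 5 negative and 5 positive values. Tctn1, of the tectonic family, was at 20.5, 20.5, 17.6 and 18.25 CPM in the mutant and 25.4, 20.05, 27.4 and 21.4 CPM in wild-type libraries. Wild-type replicate 2 lay within the mutant range, the log2 change was -0.30 ± 0.12 (SE, edgeR adjusted p = 0.336), and 25.5% of the exonic bases of Tctn1 lie under opposite-strand genes. B9d2 was the 1 member with every mutant library above every wild-type library (27.1, 28.0, 31.4 and 27.0 against 26.7, 26.8, 25.3 and 25.9 CPM), where 2.98% of all genes tested did so. The margin was smaller than the spread of the mutant libraries (log2 change 0.11 ± 0.09, edgeR adjusted p = 0.598).

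Within the same gate, B9d1 (76.2 ± 4.41 and 74.9 ± 2.03 CPM) had an interval within 1.2-fold. The intervals were wider for Cep290, the linker between microtubules and membrane (-0.46 to 0.10), for the scaffold gene Rpgrip1l (-0.44 to 0.19) and for Mks1 (-0.45 to 0.11). Nphp4 was the least precise member, at 4.24 to 9.48 CPM in the mutant and 3.36 to 8.58 CPM in wild-type libraries, with 79 to 227 read pairs per library and an interval of -0.47 to 0.86. Tctn2 and Tctn3 had log2 changes of -0.09 and 0.10. Ift88os did not pass the filter on low counts, with 3 to 30 read pairs per library (0.125 to 1.29 CPM against 0.242 to 0.808 CPM).

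**Figure D3:**
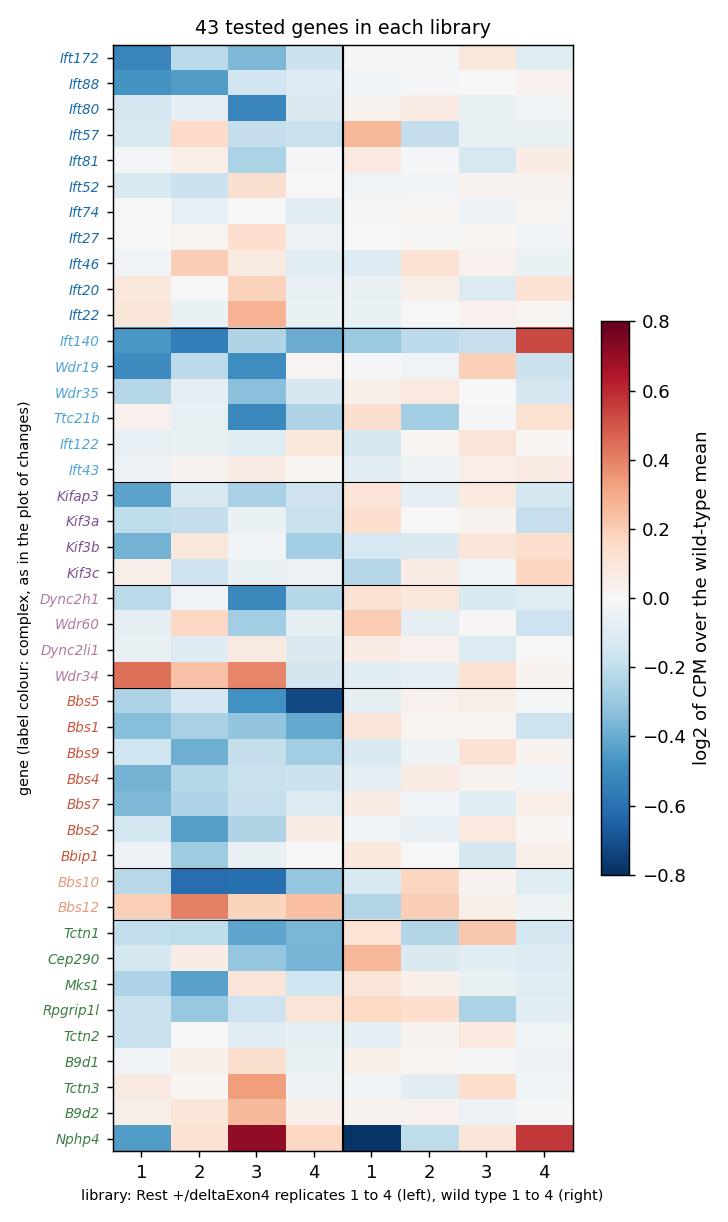
Log2 of each library's CPM over the wild-type mean for 43 tested genes, mutant replicates 1 to 4 left of the line and wild-type replicates 1 to 4 right of it, with blue for lower and red for higher. The BBSome block is blue in nearly all mutant columns, mutant replicate 3 is lowest for Ift80, Dync2h1 and Ttc21b and highest for Ift22 and Tctn3, and wild-type replicate 4 stands out for Ift140.

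Transcript length and the level of some cell type markers differed along with these values. Over all 16955 tested genes with a length, the fitted trend of mutant replicate 3 went from 0.09 at 1 kb to -0.15 at 8 kb (log2 deviation from the mean of all libraries). In mutant replicate 2 it went the other way, from -0.05 to 0.09, and wild-type replicate 1 reached 0.12 at 8 kb. Across the 45 members, which share the same libraries, longer transcripts had lower log2 changes (Spearman's rho = -0.45, against -0.05 across all genes tested). With an offset for length in each library, an alternative chosen after the values had been seen, the BBSome median was -0.24 and 5 of its 7 genes again had an unadjusted p under 0.05. Of the 45, 11 were then lower at that level, where 7.46% of all genes in that fit were, and 0 passed the adjusted threshold. The part of length in the members' values was not tested.

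The summed level of 12 ganglion neuron markers ran from 364.3 to 430.3 CPM among mutants and from 562.8 to 829.4 CPM in the wild type. Wild-type replicate 3 alone gave the 829.4 CPM, and the other wild-type libraries were at 562.8 to 647.8 CPM. A few genes carried much of the difference in this sum. Nefm averaged 100.4 CPM in mutants and 253.7 CPM in wild type, and Nefl 72.35 and 134.0 CPM. The sum of 12 hair cell markers was 701.5 to 855.8 CPM among mutants and 819.6 to 941.9 CPM in the wild type. In each list 3 of 12 fell past the adjusted threshold and 0 rose: Nefl, Nefm and Snap25 among the neuronal genes, and Otof, Lhfpl5 and Fscn2 among the hair cell genes. The background at this threshold was 1.02% for falls and 0.147% for rises. Not all genes of a list moved alike. Of the 12 neuronal genes 8 had a negative log2 change (median -0.76), with 5 lower and 0 higher at an unadjusted p under 0.05. The other 4, Isl1, Elavl4, Ntrk2 and Neurod1, had ratios of 1.006 to 1.211. Of the 12 hair cell genes 9 had a negative log2 change (median -0.24), with 4 lower and 3 higher at that level. Those higher were Atoh1, Calb2 and Pvalb (ratios 1.575, 1.249 and 1.548). The background at the unadjusted level was 7.92% for falls and 5.46% for rises. The sums do not by themselves give the number of cells. None of the 24 was at 0 reads in all libraries. The summed level of the 8 multiciliated cell markers was 53.9 to 65.6 and 62.2 to 86.8 CPM, and Gmnc was the 1 at 0. Of the 5 that were tested none passed the adjusted threshold. The axonemal genes Dnah9 (2.13 ± 0.399 against 4.78 ± 1.85 CPM, edgeR adjusted p = 0.0879), Ccdc39 (17.6 ± 3.61 against 27.5 ± 2.66 CPM, edgeR adjusted p = 0.077) and Rsph1 (9.48 ± 0.414 against 11.1 ± 0.782 CPM, edgeR adjusted p = 0.412) were each lower in every mutant library. That was the case for 4.89% of all genes tested. For Dnah5 (19.4 ± 3.54 against 19.7 ± 4.86 CPM) and Foxj1 (11.3 ± 3.22 against 9.97 ± 0.954 CPM) the groups overlapped. For 10 supporting cell markers the ranges were 3266 to 3982 and 3243 to 4053 CPM, of which Sox9 alone averaged 1878 and 1789 CPM. Of the 10, 4 had a negative and 6 a positive log2 change, and 0 passed the adjusted threshold. At an unadjusted p under 0.05, 1 was lower and 0 higher. That gene was Prox1 (6.86 ± 0.981 against 9.49 ± 1.41 CPM, edgeR adjusted p = 0.252), lower in every mutant library. Erythroid markers summed to 6449 CPM in wild-type replicate 4 and to 501.3 to 793.3 CPM in every other library, and without that replicate the BBSome median was -0.24 and 4 of its 7 genes had an unadjusted p under 0.05. The part of these markers and of cell content in the lower BBSome values was not tested.

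Levels of different genes were compared per length, as reads per kb of exon per M read pairs (RPKM, from TMM-scaled CPM and the merged exons of each gene). In wild type the highest levels were those of Ift74 (68.9 ± 1.54), Ift20 (61.1 ± 4.31), B9d1 (47.0 ± 1.27), Ift43 (44.3 ± 2.29) and Dync2li1 (39.4 ± 2.02 RPKM, SD, n = 4 each). Ift74 lay above Ift20 in every wild-type library (66.6 to 69.9 against 56.6 to 66.1 RPKM), while B9d1 and Ift43 overlapped. At the low end were Kif3b (1.55 ± 0.145), Nphp4 (0.958 ± 0.363), Rpgrip1l (0.758 ± 0.101) and Ift88os (0.205 ± 0.131 RPKM), of which Nphp4 overlapped both Rpgrip1l and, barely, Kif3b (0.556 to 1.42, 0.636 to 0.848 and 1.419 to 1.695 RPKM in that order). Subunits of 1 complex were spread widely: IFT-B ran from 68.9 for Ift74 to 3.16 RPKM for Ift80, and the BBSome from 14.2 for Bbip1 to 3.14 RPKM for Bbs1. The same 5 genes were highest in another order when the longest transcript was used as the length, with Ift43 first. The order at the low end changed too, with Rpgrip1l (1.589 RPKM) then above Kif3b (1.551) and Nphp4 (1.152 RPKM) in wild type.

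**Figure D4:**
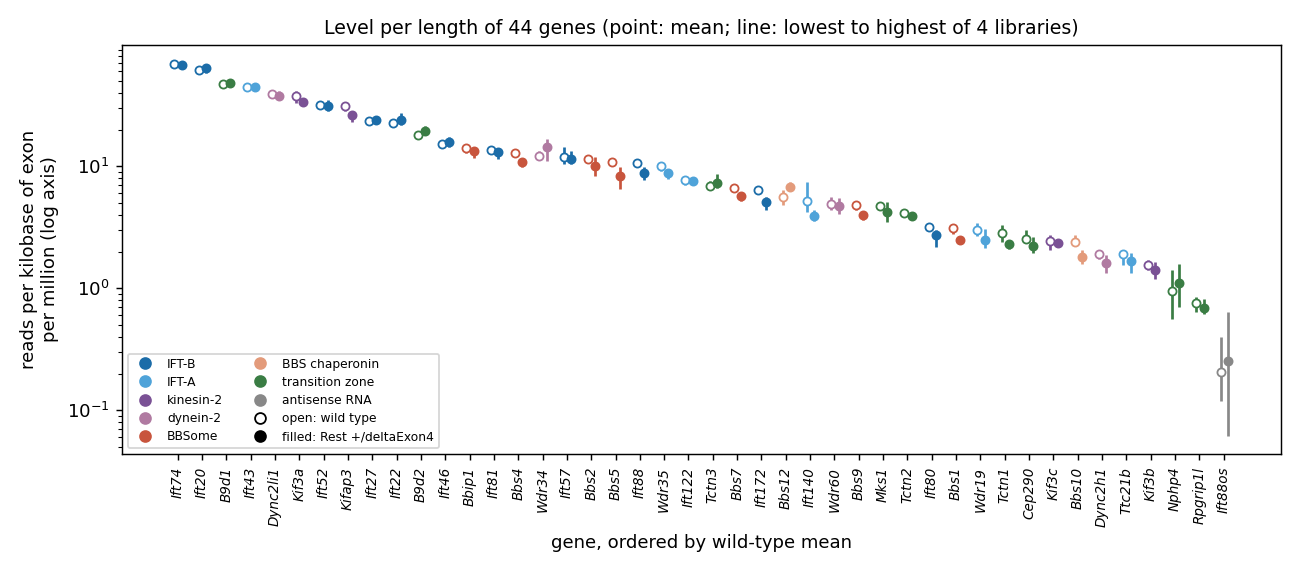
RPKM of 44 genes on a log axis, ordered by the wild-type mean, open circles for wild type and filled ones for Rest(+/deltaExon4), with lines from the lowest to the highest of 4 libraries. Levels span from 68.9 for Ift74 to 0.205 for Ift88os in wild type, and for most genes the lines of the 2 genotypes overlap.

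Promoters were read for the 39 members with an entry in the RefSeq promoter table (GRCm38.p6, 250 bases before to 50 after the start), which lacks, among others, Ift122, Ift80, Ift88os, Ift81 and Dync2li1. Ciliary genes are known for the X-box, an inverted repeat bound by RFX factors, and were searched on both strands for its arm GTTGCC and for a longer form, GTTGC and GGNAAC with 3 free bases between them, which can contain the arm. The arm was found in 19 of 39 members, including Bbs1, Bbs5 and Bbs7 but also B9d1, Tctn2 and Ift27, whose log2 changes were -0.09 to 0.03. It was present in 14.1% of all 27025 genes with a promoter and in 1774 of the 11820 tested genes among them. The longer form was in 4 members (Bbs7, Mks1, Tctn1 and B9d2) and in 0.522% of all genes. By complex, 7 of 9 transition zone, 3 of 7 BBSome and 4 of 9 IFT-B genes with a promoter held a match. The core of the REST site, CAGCACC and GGACAG with 2 free bases between them, was in 0 of 39 and in 0.0407% of all genes, and its left part TTCAGCACC in 0 of 39 and 0.433%. No match says only that these letters are not in these windows.

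Windows of 30 bases around the matches are shown for the 4 members with the longer form and for 3 of the lower genes, 5′ to 3′ on the gene's strand, with the matched letters in capitals (in B9d2 the longer form reads on the opposite strand):
Bbs7 (chr3:36613489-36613518, minus strand): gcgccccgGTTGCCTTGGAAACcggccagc
Tctn1 (chr5:122264411-122264440, minus strand): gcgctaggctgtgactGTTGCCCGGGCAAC
Mks1 (chr11:87853183-87853212, plus strand): gcgtctccGTTGCCAGGGGAACgaggcacc
B9d2 (chr7:25680788-25680817, plus strand): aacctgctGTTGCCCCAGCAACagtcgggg
Bbs1 (chr19:4906609-4906638, minus strand): atggctgagctgGTTGCCaaggcgacgcct
Bbs5 (chr2:69647191-69647220, plus strand): gatgtcgtgacaaagccggcgcGTTGCCtt
Ift172 (chr5:31291097-31291126, minus strand): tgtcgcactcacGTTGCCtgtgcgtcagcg
The match of Bbs7 begins 121 bases before the start and that of Mks1 24 bases before it, while those of Ift172, Bbs1, B9d2, Tctn1 and Bbs5 begin at bases 1, 2, 17, 37 and 43 of the transcript. The 250 bases before the start of Bbs7, the BBSome gene with the longer form, give the context of the site (chr3:36613390-36613639, minus strand, GRCm38.p6), with the match in capitals:
Bbs7 upstream: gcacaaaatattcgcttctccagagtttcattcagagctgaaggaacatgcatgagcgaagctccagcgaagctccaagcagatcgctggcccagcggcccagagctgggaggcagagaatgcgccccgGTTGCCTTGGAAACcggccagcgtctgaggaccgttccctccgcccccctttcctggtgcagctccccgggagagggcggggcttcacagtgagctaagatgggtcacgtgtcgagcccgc

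Further genes of the ciliary pathway were taken from lists of 73 symbols outside the name pattern, of which 68 were found and 67 tested. None passed the adjusted threshold in edgeR, 8 were lower and 2 higher at an unadjusted p under 0.05, and DESeq2 called 1, Traf3ip1. Over all genes tested the shares were 1.17% at the adjusted threshold, 7.92% lower and 5.46% higher at the unadjusted one, and 3.33% in DESeq2, so 8 and 2 of 67 are not far from the background. The median log2 change was -0.03, with 41 negative and 26 positive values. Traf3ip1, which encodes the IFT-B subunit IFT54, was at 79.5, 28.7, 62.0 and 42.8 CPM in the mutant and 23.8, 20.6, 23.7 and 30.4 CPM in wild-type libraries. Its mutant libraries differed widely, and mutant replicate 2 lay within the wild-type range (log2 change 1.12 ± 0.26, SE, edgeR adjusted p = 0.0826). The adjusted p was 0.0122 without that library and ranged up to 0.205 when another library was left out, and DESeq2 gave 0.000801.

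In each list the genes with the smallest unadjusted p were the following. Of the other IFT-B genes, Ttc30b was at 44.97 ± 6.63 and 53.7 ± 3.43 CPM. Of the BBSome partners, Wdpcp was at 26.8 ± 2.05 and 31.0 ± 0.927 CPM, without overlap, and Arl6, the membrane GTPase of the BBSome, at 72.9 ± 9.22 and 79.7 ± 5.95 CPM. Among the motors the Hedgehog pathway kinesin gene Kif7 was at 17.9 ± 2.16 and 13.3 ± 1.51 CPM, with higher values in every mutant library, and Kif27 at 4.24 ± 0.927 and 5.64 ± 0.154 CPM. At the gate Cspp1 was at 107.6 ± 29.6 and 152.8 ± 25.6 CPM and Sdccag8 at 19.9 ± 2.23 and 23.8 ± 2.91 CPM. At the basal body Odf2 was at 96.9 ± 9.31 and 114.4 ± 4.41 CPM and Ttbk2 at 12.3 ± 3.04 and 15.25 ± 3.27 CPM. For membrane traffic, the small GTPase gene Arl13b was at 11.95 ± 0.944 and 14.8 ± 2.15 CPM and the Hedgehog receptor gene Ptch1 at 12.3 ± 1.03 and 14.7 ± 1.08 CPM. Values are mean ± SD over 4 libraries, mutants first. For these 11 genes the edgeR adjusted p ranged from 0.184 for Kif7 to 0.593 for Arl6.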

How the data were processed

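Gene counts were deposited for each of the 8 libraries as whole, unscaled numbers of read pairs, made with STAR 2.5.2a on GRCm38.p4, per the submitters' processing notes, the annotation release not being given in the sources used here. The unstranded column was used (the 2 stranded columns held nearly equal totals). Lines that name no gene held 25.2% to 33.9% of read pairs and were left out. A second deposited file holds a signal, the counts after division by DESeq2 size factors, for 7 libraries without wild-type replicate 4. With its size factors, 100% of values gave the deposited counts (tolerance 0.001 reads). It was used to choose members and, with the counts of its libraries and genes, as an alternative, which called 127 genes.

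Genes were filtered by edgeR's filterByExpr (minimum count 10, total 15), scaled by TMM and tested with edgeR 4.0.16 (R 4.3.3) by the quasi-likelihood test over all 16990 genes, Benjamini-Hochberg threshold 0.05. Standard errors are the log2 change divided by the root of F, and intervals use the test's degrees of freedom. On simulated counts of this comparison, 27.5%, 71.5% and 95% of 200 genes changed by 1.5, 2 and 4-fold were recovered among 16734, 16727 and 16722 genes. The changed genes were drawn from those with a mean count above 20, and 3, 8 and 7 unchanged genes were called. No change smaller than 1.5-fold was simulated, so recovery at the size of the members' changes is not known. Annotation was GENCODE M21 (GRCm38), which matched 48349 of 48823 identifiers. Members and lists were chosen with earlier results of these data known. The rule for named genes was every member, by complex, with full statistics for the 6 of smallest p, the 5 highest and 5 lowest levels per length, and the 2 of smallest p in each further list. It was kept except that 44 of the 46 members are named, and 4 of the 5 lowest levels given, since some members are counted but not reported here by name. Ttc8, Mkks and the members with values by library beyond those 6 were chosen after their values were seen. Alternatives were DESeq2 1.42.0, other scalings, filters, columns and libraries, a replicate block and a length offset. P-values measure the spread between these pooled samples.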

Additional observations from a re-analysis of the deposited data

Results flagged for a closer look

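In 6 of 92 sets of 4 libraries (46 genes, 2 genotypes) the highest or lowest library stood apart by more than Dixon's critical value, and chance flags about 1 in 20 such sets. Ift140 was at 62.2 CPM in wild-type replicate 4, against 35.1 to 38.0 CPM in the other 3. Cep290 was at 35.2 CPM in wild-type replicate 1, against 27.1 to 27.5 CPM, and Ift88os at 0.808 CPM in the same library, against 0.242 to 0.323 CPM. Ift74 was at 176.9 CPM in wild-type replicate 3, against 184.6 to 185.8 CPM. Mutant replicate 3 was lowest for Ift80 (27.3 against 35.8 to 37.3 CPM) and highest for Kif3a (129.9 against 117.0 to 119.1 CPM).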

How the results depend on the processing

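The count of members past the adjusted threshold was 0 in all edgeR fits, those that leave out a library included, and 1 with DESeq2, which called 564 genes against 198 in edgeR. The further ciliary genes gave 1 call (Traf3ip1) with DESeq2 and without a filter on low counts, and 0 to 1 when a library was left out. The median log2 change of the members was -0.13 without scaling factors, where the median of all genes was -0.05, and -0.13 with the sum of the stranded columns. The BBSome median was -0.28 without scaling factors and -0.26 to -0.19 when a library was left out. The number of BBSome genes at an unadjusted p under 0.05 was 3 without mutant replicate 2 and 3 in the authors' 7 libraries. Among members near 0, signs turned without scaling factors for Ift46 (-0.0025), B9d1 (-0.0171), Ift43 (-0.0298) and Ift27 (-0.0116), in the authors' 7 libraries for Kif3c (0.0234), with the length offset for Kif3c (0.00783) and with the stranded columns for Bbip1 (0.0342). Leaving out 1 library at a time turned the sign of 11 members, whose log2 changes then ranged from -0.0684 to 0.00311 for Ift122, -0.00445 to 0.0373 for Ift43, -0.000301 to 0.124 for Ift22, -0.00609 to 0.0614 for Ift27, -0.0941 to 0.0185 for Ift52, -0.152 to 0.0328 for Ift57, -0.0910 to 0.0109 for Ift81, -0.13 to 0.0247 for Wdr60, -0.110 to 0.0103 for Kif3c, -0.0113 to 0.0569 for B9d1 and -0.0278 to 0.447 for Nphp4. The cause was not tested. With the replicate block 96 genes were called, no member. In that fit 9 members were lower at an unadjusted p under 0.05, where 7.54% of all genes tested were. Same-numbered libraries of the 2 genotypes correlated by -0.10 to 0.03 in their deviations, and differently numbered ones by -0.19 to 0.12. These values show no sign that the numbers pair the samples, but cannot exclude it. The median level per length in wild type was 12.0 RPKM with the longest transcript. It was lower with the merged exons, where the members at the middle ranks, 23 and 24, were Ift122 (7.783) and Tctn3 (6.849 RPKM). The ratio for Rest was 1.06 without scaling factors (exact permutation p = 0.229), and 1.06 to 1.11 with 1 library left out (exact permutation p = 0.0857 without any mutant library, 0.0286 without any wild-type library).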
